A study of Mus musculus with 10 samples.

Results

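The Janus kinase genes Jak1, Jak2, Jak3 and Tyk2, the transcription factor genes Stat3, Stat5a and Stat5b, and the feedback genes Socs2, Socs3 and Cish were read from bulk RNA-seq counts of mouse bone marrow. These 10 genes were chosen by symbol out of 25178 genes in the count table, and all 10 passed the filter on low counts. The study asked how blood formation differs between the sexes at steady state, in 5 female and 5 male C57/BL6 mice, with no age in the labels. Marrow was flushed from 1 hindlimb of each mouse, cells with lineage markers were depleted on magnetic beads, and the RNA of the remaining cells gave 1 library per mouse. Both groups share the strain, the depletion and the bulk assay, so that each value is an average over stem cells, progenitors and whatever mature cells the depletion left. In such bulk samples fewer cells of a type and less RNA per cell cannot be told apart.

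Janus kinases sit on the inner tails of cytokine receptors. When a cytokine joins its receptor chains, the kinases phosphorylate each other and the receptor, and then STAT proteins, which form dimers, enter the nucleus and bind DNA. STAT dimers induce Cish and other SOCS genes, whose proteins bind receptors or kinases and damp the signal, so that the transcripts of these feedback genes are commonly read as a sign of recent STAT activity. In bone marrow, JAK2 carries the signal of erythropoietin and other growth factors to STAT5, which supports red cell precursors, platelet precursors and stem cells, and STAT3 carries signals of G-CSF and of the interleukin 6 family.

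The letters that STAT dimers are known to prefer, TTCNNNGAA, are shown for the feedback genes because they are where the factors and the feedback branch of the pathway meet. The motif is its own reverse complement, so that 1 search covers both strands. RefSeq promoter windows on GRCm38.p6, from 250 bases before to 50 bases after a gene start, were found for 9 of the 10 genes (11 windows), and Socs2 had none in the table. The motif was present in 2 of the 11 windows, those of Cish and Socs3, against 8.3% of all 32851 windows. Cish held 2 copies, and 0.457% of all windows held at least 2. The first began at the first base of the annotated RefSeq transcript and the second 11 bases further on. The motif of Socs3 began 154 bases before its RefSeq start. These RefSeq starts lie inside the gene spans given further below, which come from GENCODE. Those spans begin at 107296026 for Cish (plus strand) and at 117970047 for Socs3 (minus strand), so the motifs lie within them. The stretches below read 5′ to 3′ on the strand of the gene, with the motif in capitals, covering positions -100 to 30 from the start of Cish (chr9:107296559-107296688, plus strand) and -200 to -101 from that of Socs3 (chr11:117969467-117969566, minus strand).
Cish: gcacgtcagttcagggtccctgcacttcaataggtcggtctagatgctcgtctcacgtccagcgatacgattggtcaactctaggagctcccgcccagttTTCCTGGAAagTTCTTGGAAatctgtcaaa
Socs3: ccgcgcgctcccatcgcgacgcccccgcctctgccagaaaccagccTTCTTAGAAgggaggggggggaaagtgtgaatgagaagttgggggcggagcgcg
The Cish copies read TTCCTGGAA and TTCTTGGAA, and the Socs3 copy reads TTCTTAGAA. A match describes letters only, and binding was not measured in these samples.

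The libraries held between 20754101 and 24759687 counts. Kit and Cd34, which mark stem and progenitor cells, averaged 279.9 ± 43.3 and 101 ± 17.8 CPM (a count scaled to library size with TMM; ± is the SD over 5 mice unless stated) in females, and 249 ± 59.4 and 112 ± 19.9 CPM in males, so that markers of the labelled cell type were present in both sexes. Of all 9 stem and progenitor markers, 5 had a positive and 4 a negative fold change, female over male. Their median log2 fold change was 0.02, and -0.10 without male replicates 1 and 2. Their summed level was 506 to 683.5 CPM in females and 434.1 to 660.3 CPM in males. Markers of other cells were also present, some higher and some lower in females. The summed level of 10 mature neutrophil genes was 275 to 1040 CPM in females and 216 to 9309 CPM in males, and that of 9 erythroid genes 4167 to 8471 CPM in females and 10460 to 47210 CPM in males. Both sums were highest in male replicates 1 and 2, and none of these markers was at 0. The erythroid sums did not overlap between the sexes. Of the 9 erythroid genes 8 had a negative and 1 a positive fold change. Their median log2 fold change was -1.86, and -1.26 without male replicates 1 and 2. The sum of 8 B lineage genes was 10.4 to 15.1 CPM in females and 14.0 to 42.9 CPM in males, and that of 9 monocyte and macrophage genes 169 to 317 CPM in females and 199 to 652 CPM in males. Markers with a positive fold change, as for the 10 genes, were those of megakaryocytes and platelets (8 of 8 tested, median log2 fold change 0.46, and 0.44 without male replicates 1 and 2) and those of stroma and endothelium (8 of 8, median 0.30 and 0.37). The summed level of the 9 megakaryocyte and platelet genes was 1683 to 2213 CPM in females and 1264 to 1511 CPM in males, without overlap, and that of the 8 stromal and endothelial genes 369.9 to 2472 CPM in females and 395 to 2800 CPM in males. Male replicate 2 had the lowest TMM factor (0.886), and its deviations from the mean of all mice were lower for longer genes (rank correlation with exon length across 14663 genes -0.506, against -0.297 to 0.369 in the other libraries). It also held the lowest value of 8 of the 10 genes. The share of all genes with their lowest value in that library was not computed, so the count is not shown to be particular to these genes. The part of cell makeup and of this relation to length in the values below was not tested, and fold changes are given with and without male replicates 1 and 2. Because male replicate 2 held most of the lowest values, the fold changes without it are a description and no independent check.

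Per length of transcript, Jak1, Jak2 and the STAT5 genes were abundant and the feedback genes were scarce. Tyk2, Jak3 and Stat3 lay nearer the middle, above 65.2%, 54.5% and 51.6% of 14663 genes. Values here are CPM per kilobase of the union of annotated exons, given as the mean ± SD over all 10 mice. Jak1, the kinase of the interferon and interleukin 6 receptor families, was highest at 34.1 ± 4.94, above 87% of 14663 genes. Stat5b followed at 28.7 ± 4.43 and Stat5a at 21.7 ± 3.96, and Jak2 was at 21.3 ± 2.19. Jak1 lay above Stat5b, and Stat5b above Stat5a, in all 10 mice, although the ranges over mice overlapped. Stat5a lay above Jak2 in 5 of 10 mice, so that these neighbours did not differ beyond their spread.

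Tyk2, which serves the type I interferon and interleukin 12 receptors, was at 9.71 ± 1.86 CPM per kilobase. Jak3, which works only with receptors that contain the common gamma chain, was at 6.05 ± 1.16, and Stat3 at 5.28 ± 1.02. The order of Jak3 and Stat3 held in 9 of 10 mice. A gap of 10.6-fold separated Stat3 from the first feedback gene. Socs3, whose protein blocks the G-CSF receptor and the interleukin 6 receptor chain gp130, was at 0.498 ± 0.267. Cish, a classic STAT5 target, was at 0.297 ± 0.0497. Socs2, best known as a brake on growth hormone signalling, was at 0.0994 ± 0.0377. That lay above 1.7% of the genes tested when every length is the union of exons, and its place with other lengths was not computed.

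The order inside these blocks depends on the length used. The union of exons counts every annotated isoform, and for Socs2 it came to 9.531 kb, against 2.222 kb for the longest coding transcript. With the length of the longest coding transcript, a choice added after seeing the data, Stat5a was at 39.8 CPM per kilobase and passed Stat5b at 30.5 in all 10 mice. Stat3 then passed Jak3 in 7 of 10 mice. Cish at 0.669, Socs3 at 0.564 and Socs2 at 0.426 then had overlapping ranges, with Cish above Socs3 in 6 of 10 mice and Socs3 above Socs2 in 6 of 10. With either length every kinase and STAT gene lay above every feedback gene in each mouse.

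**Figure D1:**
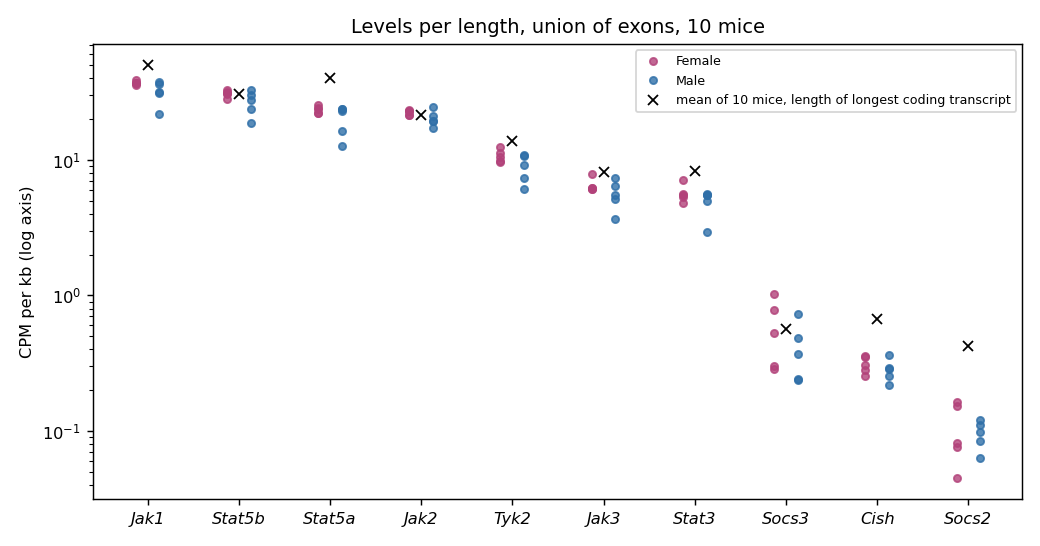
Level of each gene in CPM per kilobase of exon (log axis), with 1 point per mouse, 5 females left of 5 males; crosses mark the mean of 10 mice computed with the longest coding transcript. The feedback genes Socs3, Cish and Socs2 lie below the other 7 genes, between 0.0448 and 1.02 CPM per kilobase of exon.

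Within families the balance between members was close in both sexes. The shares here use the union of exons. With the longest coding transcript Stat5a lay above Stat5b, so that the size and order of the shares depend on the length used. Of the CPM per kilobase of the 4 kinases, Jak1 made up 48.2% ± 0.718 in females and 47.5% ± 1.68 in males, and Jak2 29.3% ± 1.49 and 31.0% ± 2.61. Tyk2 made up 14.0% ± 1.33 in females and 13.2% ± 1.10 in males, and Jak3 8.52% ± 0.979 and 8.40% ± 0.819. Of the 3 STAT genes, Stat5b made up 51.5% ± 1.16 in females and 52.0% ± 1.79 in males, and Stat5a 39.1% ± 0.706 and 38.4% ± 2.19. Stat3 made up 9.41% ± 1.13 in females and 9.57% ± 1.39 in males.

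Ratios within a library do not depend on how libraries are scaled, and 3 were compared between the sexes by an exact two-sided permutation test over mice. The log2 ratio of Jak1 to Jak2 counts was 1.24 ± 0.071 in females and 1.14 ± 0.161 in males (difference 0.10, exact p = 0.278, adjusted p = 0.706 over the 3 ratios). The log2 ratio of Stat5a to Stat5b counts was -0.03 ± 0.048 in females and -0.07 ± 0.124 in males (difference 0.04, exact p = 0.492, adjusted p = 0.706). That of Socs2 to Cish was -1.16 ± 0.646 in females and -1.02 ± 0.442 in males (difference -0.13, exact p = 0.706, adjusted p = 0.706). The sign of the Socs2 to Cish difference turned without female replicate 3 (0.06) or male replicate 2 (0.05), the Jak1 to Jak2 difference was 0.03 without male replicate 2, alone or with male replicate 1, and the sign of the Stat5a to Stat5b difference turned without male replicates 1 and 2 (-0.03). The smallest p this design allows is 0.00794.

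Between the sexes, none of the 10 genes was called in the fit of edgeR's quasi-likelihood test across 14674 genes. All 10 averaged higher in females, with log2 fold changes of 0.13 to 0.51, and all 10 had overlapping female and male values. At an adjusted p under 0.05, 0 of the 10 genes and 0.0545% of all genes tested were called. At an unadjusted p under 0.05 the count was 0 of the 10 genes, against 9.17% of all genes (3.76% higher and 5.41% lower in females), and DESeq2 called 0 of the 10, against 0.337% of all genes it tested. Groups without overlap were seen in 0 of the 10 genes and in 1.93% of all genes (all females above all males in 1.06%, all females below in 0.865%). A positive fold change was seen in 10 of the 10 genes and in 48% of all genes, and the median log2 fold change was 0.21 for the 10 genes and -0.01 for all genes tested. Without male replicates 1 and 2, 9 of the 10 fold changes were positive, against 49.6% of all genes, and the median was 0.07, with 0 of the 10 genes called, against 0.0799% of all genes. Without male replicate 2 alone the median was 0.11, without male replicate 4 it was 0.28 and without male replicate 5 it was 0.27. Without male replicate 4, 4 of the 10 genes had an unadjusted edgeR p under 0.05, against 15% of all genes, and Jak2 no longer overlapped between the sexes, which then held for 4.04% of all genes. Without male replicate 5 it was 1 of the 10 genes, against 15.3%.

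**Figure D2:**
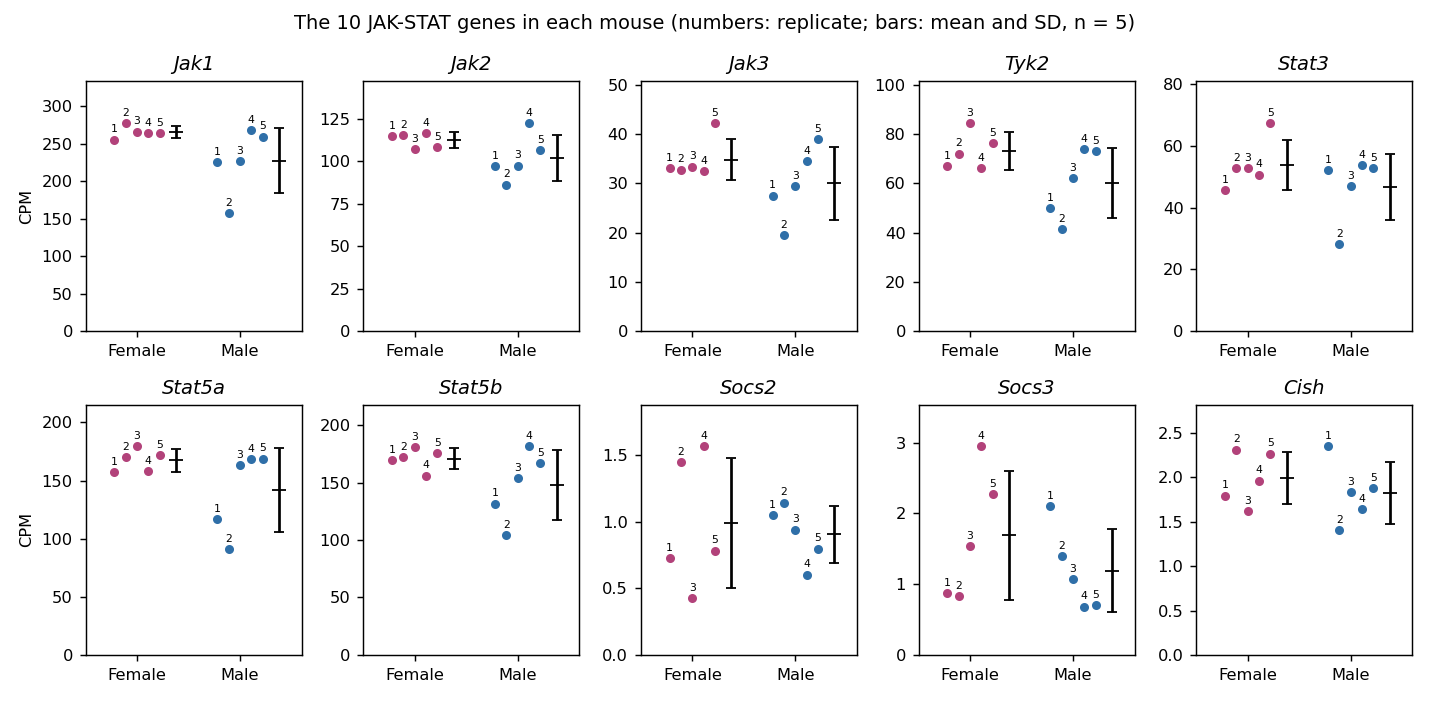
CPM of each of the 10 genes in each mouse, females left of males, with replicate numbers above the points and the mean and SD of 5 mice beside them. Male replicate 2 is the lowest point for 8 of the 10 genes, and no gene separates the 5 females from the 5 males. The share of all genes lowest in that mouse was not computed.

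Among the kinases, Jak1 (GRCm38 chromosome 4, 101152367 to 101265282) was at 256, 278, 266, 264 and 264 CPM in female replicates 1 to 5 and at 225, 158, 226, 268 and 259 CPM in male replicates 1 to 5. The females lay close together, while 3 males lay below all of them and 2 among them. The means were 266 ± 8.04 CPM in females and 227 ± 43.4 CPM in males, a log2 fold change of 0.22 (SE 0.125, 95% interval -0.05 to 0.50, edgeR adjusted p = 0.506). Among the 5 females and the other 3 males, without male replicates 1 and 2, the log2 fold change was 0.08.

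Jak2 (chromosome 19, 29251828 to 29313080) was at 115, 116, 107, 117 and 108 CPM in female replicates 1 to 5 and at 97.2, 86.2, 97.4, 123 and 106 CPM in male replicates 1 to 5. Male replicate 4 was the highest mouse, and the other 4 males lay below every female. The means of 112 ± 4.51 CPM in females and 102 ± 13.6 CPM in males gave a log2 fold change of 0.14 (SE 0.097, 95% interval -0.07 to 0.35, edgeR adjusted p = 0.521). The upper bound is 1.28-fold, and the interval is the narrowest of the 10 genes. Leaving out male replicates 1 and 2 gave a log2 fold change of 0.04.

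Tyk2 (chromosome 9, 21104068 to 21131243) ran from 66.1 to 84.6 CPM in females and from 41.4 to 73.9 CPM in males, with 2 females above all males. Its log2 fold change was 0.28 (SE 0.155, 95% interval -0.05 to 0.62, edgeR adjusted p = 0.506), and 0.07 without male replicates 1 and 2. Jak3 (chromosome 8, 71676296 to 71690575) ran from 32.5 to 42.3 CPM in females and from 19.5 to 39.0 CPM in males (log2 fold change 0.22, SE 0.163, edgeR adjusted p = 0.544). Female replicate 5 was the highest mouse for Jak3, and the other 4 females lay between 32.5 and 33.4 CPM. For Jak3 the log2 fold change was 0.02 without male replicates 1 and 2.

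The STAT genes lie next to each other on chromosome 11, Stat5b at 100780731 to 100850724, Stat5a at 100859351 to 100885169 and Stat3 at 100885098 to 100939540. Stat5a was at 157, 170, 179, 158 and 172 CPM in female replicates 1 to 5 and at 117, 90.8, 164, 169 and 169 CPM in male replicates 1 to 5. Male replicates 1 and 2 lay below all females, and the other 3 males lay within the female range. The means were 167 ± 9.64 CPM in females and 142 ± 36.0 CPM in males (log2 fold change 0.24, SE 0.158, 95% interval -0.11 to 0.58, edgeR adjusted p = 0.517). Without male replicates 1 and 2 the log2 fold change was -0.000492.

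Stat5b ran from 156 to 181 CPM in females and from 104 to 181 CPM in males, with the highest value of all in male replicate 4. Its log2 fold change was 0.21 (SE 0.132, 95% interval -0.08 to 0.50, edgeR adjusted p = 0.511), and 0.03 without male replicates 1 and 2. Stat5a and Stat5b encode closely related proteins, and the sources used here do not say how reads that match both were counted, so that the split between them is uncertain to that extent.

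Stat3 was at 45.6, 52.8, 52.8, 50.7 and 67.5 CPM in female replicates 1 to 5 and at 52.1, 28.2, 47.0, 53.7 and 52.7 CPM in male replicates 1 to 5. Apart from female replicate 5 and male replicate 2, the values of both sexes lay between 45.6 and 53.7 CPM. The log2 fold change was 0.21 (SE 0.169, 95% interval -0.16 to 0.57, edgeR adjusted p = 0.57), and 0.07 without male replicates 1 and 2. Stat3 and Stat5a meet tail to tail and share 72 exonic bases, 0.756% of the exon length of Stat3 and 1.01% of that of Stat5a, where unstranded reads could not be assigned. The sources used here do not say whether counting used strand.

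**Figure D3:**
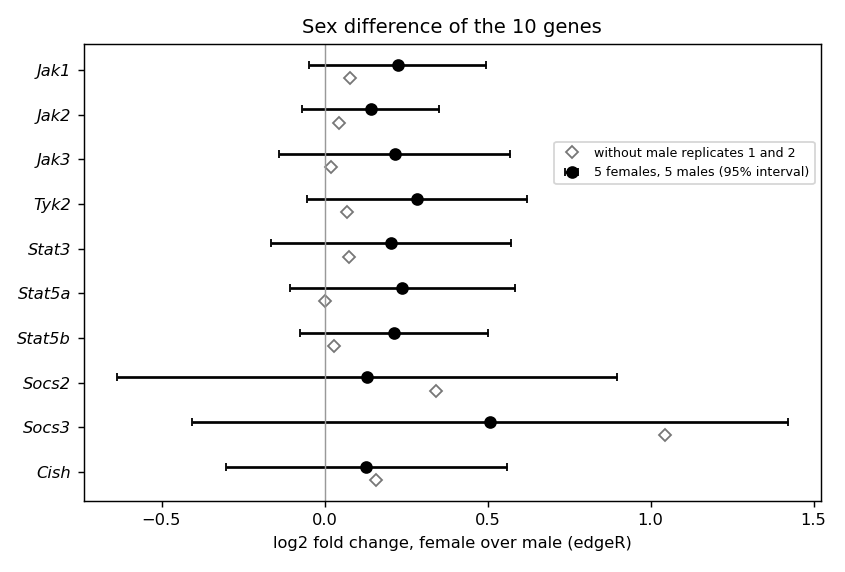
Log2 fold change of each gene, female over male, with the 95% interval from edgeR (filled points, 5 females and 5 males), and the value without male replicates 1 and 2 (open points). All 10 intervals include 0; the kinase and STAT values lie between -0.000492 and 0.08 without those males, and Socs3 moves to 1.04.

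The feedback genes had few counts, so that counting error alone gave a coefficient of variation of 15.1% to 21.5%. Socs3 (chromosome 11, 117966079 to 117970047) had 18, 20, 36, 66 and 58 counts in female replicates 1 to 5 and 50, 27, 25, 17 and 15 counts in male replicates 1 to 5. In CPM these were 0.873, 0.826, 1.54, 2.95 and 2.27 in females and 2.10, 1.40, 1.07, 0.682 and 0.704 in males. Female replicates 4 and 5 were the highest mice, male replicate 1 came next, and the low values came from both sexes. The means of 1.69 ± 0.915 CPM in females and 1.19 ± 0.587 CPM in males gave a log2 fold change of 0.51 (SE 0.42, 95% interval -0.41 to 1.42, edgeR adjusted p = 0.57). Without male replicates 1 and 2 it was 1.04 (edgeR unadjusted p = 0.0319, adjusted p = 0.804), in a fit where 5.6% of all genes had an unadjusted p under 0.05. With 1 mouse left out the value ran from 0.216 without female replicate 4 to 0.815 without male replicate 1. The coefficient of variation of Socs3 was 54.1% in females and 49.3% in males, against 17.4% from counting error alone at its mean count.

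Socs2 (chromosome 10, 95385362 to 95417180) had 15, 35, 10, 35 and 20 counts in female replicates 1 to 5 and 25, 22, 22, 15 and 17 counts in male replicates 1 to 5. Female replicates 2 and 4 were the highest mice and female replicate 3 the lowest, so that the males lay inside the female range. Levels were 0.989 ± 0.491 CPM in females and 0.906 ± 0.213 CPM in males (log2 fold change 0.13, SE 0.352, 95% interval -0.64 to 0.90, edgeR adjusted p = 0.858). The sign turned without female replicate 2 (-0.05) or female replicate 4 (-0.09), and the value was 0.34 without male replicates 1 and 2. The spread of the males, 23.5%, was close to the 21.5% that counting error gives, and that of the females was 49.6%.

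Cish (chromosome 9, 107296026 to 107302784) had 37, 56, 38, 44 and 58 counts in female replicates 1 to 5 and 56, 27, 43, 41 and 40 counts in male replicates 1 to 5. The female and male values were interleaved, with a mean of 1.99 ± 0.298 CPM in the 5 females and 1.82 ± 0.350 CPM in the 5 males (log2 fold change 0.13, SE 0.198, 95% interval -0.30 to 0.56, edgeR adjusted p = 0.745). The log2 fold change was 0.16 without male replicates 1 and 2, and with 1 mouse left out it ran from 0.05 without male replicate 2 to 0.23 without male replicate 1. Its coefficient of variation was 14.9% in females and 19.2% in males, against 15.1% from counting error. The interval allows a level in females from 0.811 to 1.47 times that in males, so that a smaller difference in this readout of STAT5 targets was not detectable at this depth. Genes that share exonic bases with the 10 genes had few counts themselves, with 23 over all libraries for Insl3 (404 bases shared with Jak3) and 6 for Gm17040 (261 bases shared with Cish). The antisense genes 1700084C06Rik (554 bases shared with Tyk2) and Gm17041 (479 bases shared with Cish) were not in the count table. Reads from them and from Tyk2 or Cish cannot be told apart without strand.

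The spread between mice was wider in males than in females for all 7 kinase and STAT genes. The share of all genes with a wider spread in males was not computed, so this is not shown to be particular to these genes. The male libraries also differed more from each other, with a rank correlation to exon length of -0.506 to 0.369, against 0.043 to 0.328 in females. The coefficient of variation of Jak1 was 3.03% in females and 19.1% in males, that of Stat5a 5.76% in females and 25.4% in males, and that of Stat5b 5.43% and 20.7%. Without male replicate 2 the male values were 9.12% for Jak1, 16.4% for Stat5a and 13.4% for Stat5b. For Stat3 the order then turned, with 15.1% in females and 5.87% in the other 4 males. Counting error alone gives between 1.33% and 3.66% for the 7 kinase and STAT genes. The difference in spread was not tested.

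Tyk2, Stat5a and Stat5b varied together from mouse to mouse, and Jak1 and Jak3 varied with them less closely. As a description over the 10 libraries, which share scaling and depth, Pearson's r of log2 CPM was 0.97 for Stat5a with Stat5b, 0.96 for Tyk2 with Stat5a and 0.97 for Tyk2 with Stat5b. Without male replicate 2 these were 0.90, 0.93 and 0.95. For Jak1 with Tyk2, Stat5a and Stat5b r was 0.90, 0.92 and 0.95, and 0.80, 0.70 and 0.82 without male replicate 2. For Jak3 with the same genes it was 0.89, 0.89 and 0.90, and 0.72, 0.65 and 0.68 without that mouse. Tyk2, Stat5a and Stat5b held the highest r among the 10 genes, and a background of r over all gene pairs was not computed. The r of Stat3 with the other 6 kinase and STAT genes was lowest for Jak2 and highest for Jak3, at 0.64 and 0.91 over all libraries and at 0.06 and 0.69 without that mouse. Socs2 had an r of -0.46 with Stat5b and -0.37 with Stat5a, Socs3 of -0.28 and -0.24, and Cish of 0.29 and 0.30, which was -0.50 and -0.48 without male replicate 2. The r of Cish with Stat3 was 0.69 over all libraries and 0.40 without male replicate 2. No difference between these values was tested.

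**Figure D4:**
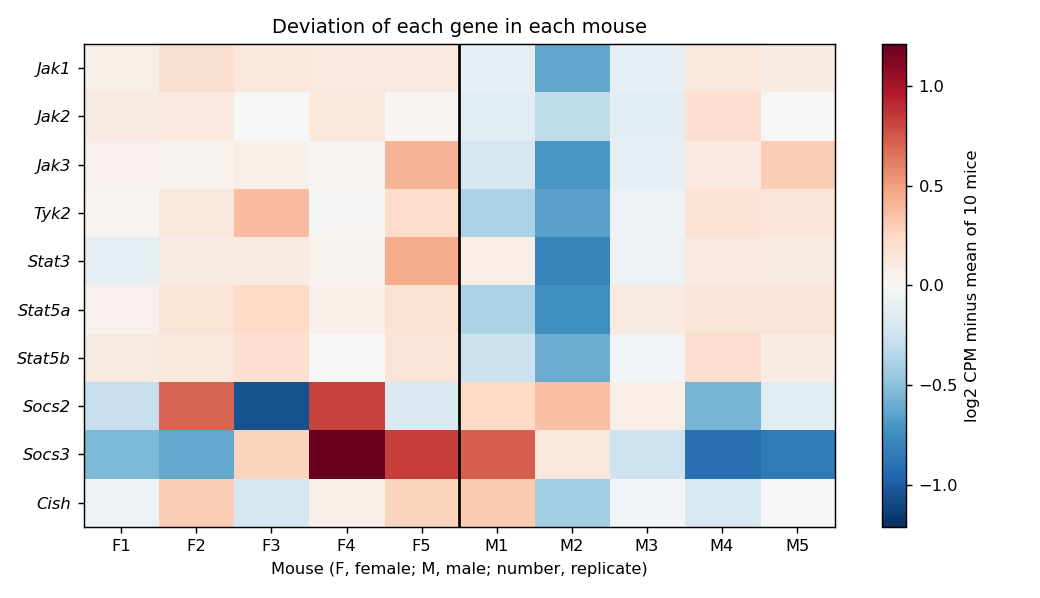
Log2 CPM of each gene (rows) in each mouse (columns, 5 females left of 5 males) minus the gene's mean over the 10 mice. No prior count was added here. Blue cells in the column of male replicate 2 run through all 7 kinase and STAT genes, and the Cish cell is blue too, while Socs2 and Socs3 vary most in other mice.

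The genes whose log2 CPM most resembled that of each feedback gene were looked up among 9585 genes with a mean of at least 5 CPM. For Socs3 they were Rnf144b (r = 0.932), the interferon-induced GTPase gene Igtp (r = 0.926) and Mmd (r = 0.922). For Cish they were Msantd4 (r = 0.908), the interleukin 4 receptor gene Il4ra (r = 0.888) and Pigw (r = 0.874). For Socs2 they were Ndrg2 (r = 0.898), the translation termination factor gene Etf1 (r = 0.819) and Trnt1 (r = 0.799). Spearman's rho of these 9 genes was 0.83 to 0.94. With 10 libraries and 9585 genes searched such values describe these mice only.

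Of 52 other genes of the pathway, 51 were tested and 0 were called by edgeR or by DESeq2. At an unadjusted p under 0.05 there were 4 higher and 2 lower in females, 11.8% of the 51, beside 9.17% of all genes. Fold changes were positive for 26 and negative for 25, with a median log2 value of 0.03. The sexes did not overlap for 1 gene, Socs5, which is 1.96% of the 51, beside 1.93% of all genes. Of 3 other STAT genes 2 had a positive value (median 0.03, and -0.03 without male replicates 1 and 2). Stat2, a factor of the type I interferon response, averaged 22.6 ± 1.75 CPM in the 5 females and 18.6 ± 3.85 CPM in the 5 males (log2 fold change 0.28, edgeR adjusted p = 0.506), and the value was 0.11 without male replicates 1 and 2. Stat4, a factor of interleukin 12 signalling, had a log2 fold change of -0.20 (edgeR adjusted p = 0.57), and of -0.05 without male replicates 1 and 2. Stat6, the factor of interleukin 4 signalling, averaged 81.7 ± 2.70 CPM in the 5 females and 80.2 ± 11.6 CPM in the 5 males, and its log2 fold change of 0.03 turned to -0.06 when male replicate 2 was omitted and to -0.03 when both male replicates 1 and 2 were (edgeR adjusted p = 0.908 with all mice).

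Of the other SOCS genes 4 of 5 had a positive value (median 0.29, and 0.08 without male replicates 1 and 2). Socs5, a SOCS protein linked to EGF receptor and interleukin 4 signalling, averaged 12.4 ± 1.33 CPM in the 5 females and 10.1 ± 0.550 CPM in the 5 males. All 5 females lay above all 5 males, with a log2 fold change of 0.29 (SE 0.107, edgeR unadjusted p = 0.0198, adjusted p = 0.506). It remained between 0.24 and 0.33 in every alternative run. Socs7 averaged 45.9 ± 2.21 CPM in the 5 females and 36.8 ± 9.75 CPM in the 5 males (edgeR adjusted p = 0.506), and Socs1, the main brake on interferon gamma signalling, averaged 1.18 ± 0.352 CPM in the 5 females and 0.903 ± 0.150 CPM in the 5 males (edgeR adjusted p = 0.519). The log2 fold change of Socs7 was 0.32, and omitting male replicate 2 gave 0.19, omitting both male replicates 1 and 2 gave 0.08. That of Socs1 was 0.38, and omitting female replicate 4 gave 0.21, omitting male replicates 1 and 2 gave 0.29.

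Of 12 other genes listed as inhibitors of the pathway 8 had a positive value (median 0.08, and 0.02 without male replicates 1 and 2). Whether the product of each listed gene, such as Ptpn11, inhibits signalling in these cells was not tested. Sh2b3, which encodes the adaptor LNK, a restraint on JAK2, averaged 52.7 ± 7.73 CPM in the 5 females and 42.1 ± 5.50 CPM in the 5 males (log2 fold change 0.33, SE 0.126, edgeR adjusted p = 0.506). The phosphatase gene Ptpn6 (SHP-1) averaged 112 ± 8.81 CPM in the 5 females and 135 ± 21.3 CPM in the 5 males (-0.26), and Ptpn11 (SHP-2) averaged 226 ± 20.5 CPM in the 5 females and 170.0 ± 48.8 CPM in the 5 males (0.41), both with an edgeR adjusted p of 0.506. The log2 values of Sh2b3, Ptpn6 and Ptpn11 were 0.23, -0.10 and 0.16 without male replicates 1 and 2.

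Of 18 tested receptor genes 7 had a positive value (median -0.08, and -0.01 without male replicates 1 and 2), and Prlr was below the filter. Lepr, with a mean of 3.84 ± 2.07 CPM in the 5 females and 2.13 ± 1.41 CPM in the 5 males, and the growth hormone receptor gene Ghr, at 1.17 ± 0.649 CPM in the 5 females and 0.645 ± 0.378 CPM in the 5 males, also had an edgeR adjusted p of 0.506. Their log2 fold changes of 0.845 for Lepr and 0.837 for Ghr were 0.455 and 0.43 once female replicate 4 was omitted. With male replicates 1 and 2 omitted they were 1.48 and 1.12. Lepr is also 1 of the 8 stromal and endothelial markers, and the part of such cells in its value was not tested. Il2rg, the common gamma chain with which JAK3 works, averaged 12.1 ± 1.57 CPM in the 5 females and 14.1 ± 1.77 CPM in the 5 males (log2 fold change -0.22, SE 0.128, edgeR adjusted p = 0.506), and the log2 value was -0.10 without male replicates 1 and 2. Of 13 other known STAT3 and STAT5 targets 5 had a positive value (median -0.14), and the median turned to 0.02 without male replicates 1 and 2. Myc, a growth regulator, averaged 204 ± 13.8 CPM in the 5 females and 169 ± 18.9 CPM in the 5 males (log2 fold change 0.27, SE 0.092, edgeR adjusted p = 0.506), with a log2 value of 0.20 without male replicates 1 and 2.

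Cebpd, which encodes a factor of granulocyte maturation, averaged 13.8 ± 1.64 CPM in the 5 females and 19.2 ± 6.93 CPM in the 5 males (-0.48), and Bcl6, a repressor, averaged 2.80 ± 0.732 CPM in the 5 females and 4.50 ± 2.35 CPM in the 5 males (-0.69), both with an edgeR adjusted p of 0.506. All 10 neutrophil markers had a negative fold change as well (median -2.51, and -0.95 without male replicates 1 and 2). Without those males the values of Cebpd and Bcl6 were -0.18 and -0.36, and without male replicate 1 alone they were -0.231 and -0.325. The part of the neutrophil markers in these values was not tested.

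**Figure D5:**
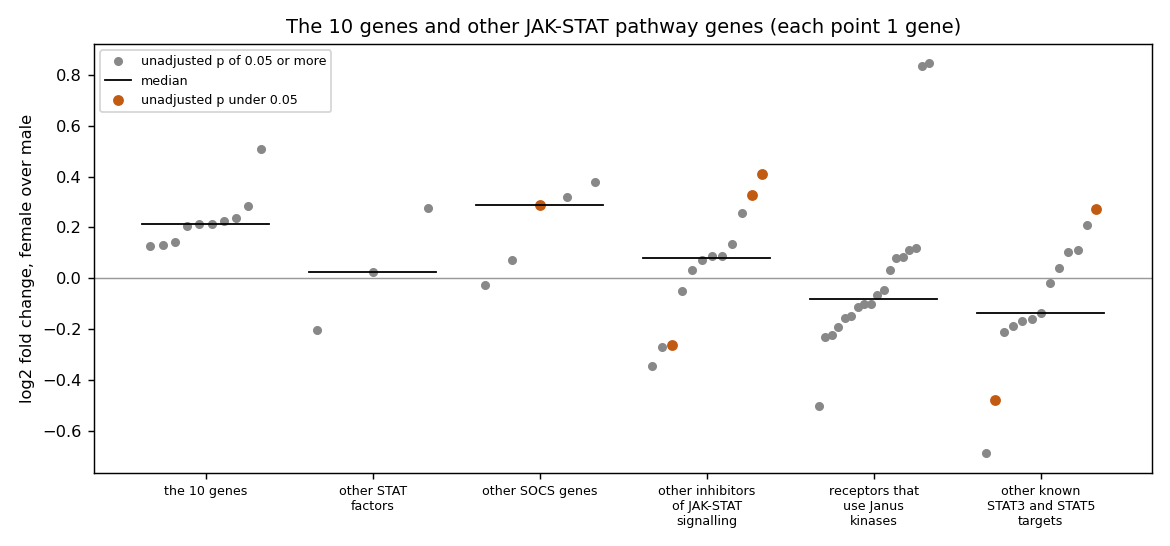
Log2 fold change, female over male, of the 10 genes and of 51 other tested genes of the pathway in 5 lists; each point is 1 gene, orange points have an unadjusted edgeR p under 0.05 and lines mark medians. With all 10 mice medians run from -0.14 for STAT targets (0.02 without male replicates 1 and 2) to 0.29 for the other SOCS genes (0.08 without them), and no gene was called after adjustment.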

How the data were processed

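RNA of lineage-depleted marrow from 5 female and 5 male mice was sequenced, 1 library per mouse. The values used are raw counts per gene as deposited by the authors; per the submitters' processing notes STAR, featureCounts and DESeq were used, with the builds GRCm38.p6 and mm10. How strand and multimapping reads were treated is not given in the sources used, and the deposited normalized table was not used.

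Counts were scaled by TMM, filtered with filterByExpr (14674 of 25178 genes) and fitted with edgeR 4.0.16 in R 4.3.3 (robust quasi-likelihood test, sex as the only term, Benjamini-Hochberg adjustment over all genes, threshold 0.05, 95% intervals). Log2 CPM used a prior count of 2. DESeq2 1.42.0, other scalings, filters, a replicate block and omitted libraries were alternatives. Exon lengths and places come from GENCODE vM21 on GRCm38, which held 25116 of the 25178 gene IDs. Depth was 20754101 to 24759687 counts per library. Counting errors cover sampling of reads only.

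The 10 genes and all lists were chosen with earlier results of these data known. Named pathway genes are the 3 with the smallest p in each list, and genes like a feedback gene are the 3 with the highest r, predicted genes left out. Some genes of the pathway are not reported here and are left out of the lists and their counts.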

Additional observations from a re-analysis of the deposited data

Results flagged for a closer look

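In each of 74 groups of 5 mice the CPM of a named gene was searched for 1 mouse far from the other 4, and 7 were found; chance gives about 1 group in 20. Female replicate 5 stood apart for Jak3 at 42.3 CPM, against 32.5 to 33.4 CPM in the other females. Male replicate 2 stood apart for Stat3 at 28.2 CPM, against 47.0 to 53.7 CPM in the other males, and for Sh2b3 at 32.5 CPM, against 43.5 to 46.3 CPM. Female replicate 4 was high for both receptor genes Lepr, at 7.50 CPM against 2.57 to 3.36 CPM in the other females, and Ghr, at 2.32 CPM against 0.784 to 0.940 CPM. Male replicate 1 was high for Cebpd at 31.4 CPM, against 14.9 to 17.9 CPM in the other males, and held the highest sum of neutrophil markers. Female replicate 2 was low for Bcl6 at 1.53 CPM, against 2.96 to 3.42 CPM in the other females.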

How the results depend on the processing

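None of the 10 genes and none of the 51 other pathway genes was called under any of the 16 alternatives. Over all genes edgeR called 8, DESeq2 60, the replicate block 5, and the omission of each library in turn 6 to 10. The number of the 10 genes without overlap was 0 to 1 when each library was left out (1, Jak2, without male replicate 4, where 4.04% of all genes had none, in a range of 2.35% to 4.24%). Replicate numbers are not stated to pair mice. Same-numbered females and males, each centred on the mean of its sex, correlated at -0.302 to -0.007. So few values cannot decide whether mice were paired. The replicate block called none of the 10 genes. Without male replicates 1 and 2 the log2 values of Stat5a (-0.000492), Stat6 (-0.0336, and -0.0576 to 0.0659 when each library was left out, lowest without male replicate 2), the Stat5a to Stat5b ratio (-0.032) and the Socs2 to Cish ratio (0.063) changed sign; the cause was not tested. When each library was left out, the Socs2 to Cish difference ran from -0.338 to 0.06 (0.06 without female replicate 3, 0.049 without male replicate 2), and the log2 fold change of Socs2 from -0.0905 to 0.322 (-0.05 without female replicate 2, -0.0905 without female replicate 4). Without male replicates 1 and 2, r with Cish was 0.805 for Msantd4, 0.771 for Il4ra and 0.717 for Pigw, an alternative chosen after seeing the data. Socs2, Socs1 and Ghr were below a minimum of 1 CPM in 5 libraries and had no value there. Counting error of the feedback genes was 15.1% to 21.5% per library, below the spread between mice for Socs3 in both sexes (54.1% in females and 49.3% in males) and for Socs2 in females (49.6%).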
